A study of Homo sapiens with 6 samples.

Results

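Mitochondrial ribosomal protein genes were taken as the protein-coding RefSeq genes (GRCh38.p14) whose symbol begins with MRPL or MRPS followed by a number, which gave 77 of 20037 protein-coding genes. By the role list used here, 51 encode proteins of the large subunit and 26 of the small subunit, and the symbol does not always tell which, since MRPS18A and MRPS30 belong to the large one. ChIP-seq had been performed in 2 clones, #4 and #5, of K562, a human chronic myelogenous leukemia line, each clone carrying both Flag-tagged PLAG1-S and USF2 as co-overexpressed proteins. Each clone gave an anti-Flag library (PLAG1-S below), a USF2 library and an input. The 4 peak lists of the immunoprecipitated libraries were made by the authors with MACS2 against the merged inputs, so that all lists share 1 control. Both factors were overexpressed in every sample, each clone is a single line, and no cells without the transgenes were compared. A peak in 1 factor's list therefore describes these overexpressing clones only.

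The mitochondrial ribosome translates the few messages of the mitochondrial genome, which encode core subunits of the respiratory chain and of ATP synthase. Its RNAs are made inside the organelle, whereas all its proteins are encoded in the nucleus, translated in the cytosol and imported. Some of these proteins descend from bacterial ribosomal proteins and others have no bacterial counterpart. USF2 is a basic helix-loop-helix leucine zipper factor that binds the E-box, and PLAG1 is a zinc finger factor with a G-rich consensus; PLAG1-S is its short form.

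A peak was assigned to a gene when it lay inside the gene or within 3 kb of it, and peaks of the same factor that overlapped between the clones were called reproducible. Co-bound means that such PLAG1-S and USF2 peaks had edges no more than 100 bp apart. All folds are the authors' enrichment at the peak summit over the local background, a ratio, and are given for clone 4 and then clone 5. No test was run on the members, because they were chosen with results of these lists known, and 2 clones give no useful estimate of spread. Counts of members are set beside the share of all protein-coding genes counted in the same way.

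The lists held 37574 and 29889 PLAG1-S peaks and 9338 and 4369 USF2 peaks in clones 4 and 5. The labels give 42.5 M reads of 50 bp for each immunoprecipitation. Peaks at the members rested on 13 to 195 fragments over the summit, with medians of 22 to 36 over the 4 lists, so that the weak ones were close to the calling limit. K562 carries amplified BCR and ABL1, and the local background recovered from the clone 4 PLAG1-S peaks was 18.2 fragments at BCR and 20.2 at ABL1, against a median of 3.67. The lists hold no expression values, so neither the level of the 2 factors nor that of any member could be checked.

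PLAG1-S peaks were found at most mitochondrial ribosomal protein genes, and USF2 peaks at few. In clone 4, 63 of the 77 members (81.8%) had a PLAG1-S peak, against 64% of all protein-coding genes. In clone 5 the count was 55 (71.4%), against 58.3%. A reproducible PLAG1-S peak was present at 49 members (63.6%), against 52%. USF2 peaks were present at 20 members in clone 4 (26.0%) and at 7 in clone 5 (9.09%), against 25.3% and 13.6% of all genes. The USF2 peak was reproducible at 6 members (7.79%), against 10.3%, and 5 members (6.49%) had a co-bound peak, against 9.98%. The share of members was above the background in both PLAG1-S lists, near it in the clone 4 USF2 list and below it in the clone 5 USF2 list, where a difference of a few genes would change the order.

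**Figure D1:**
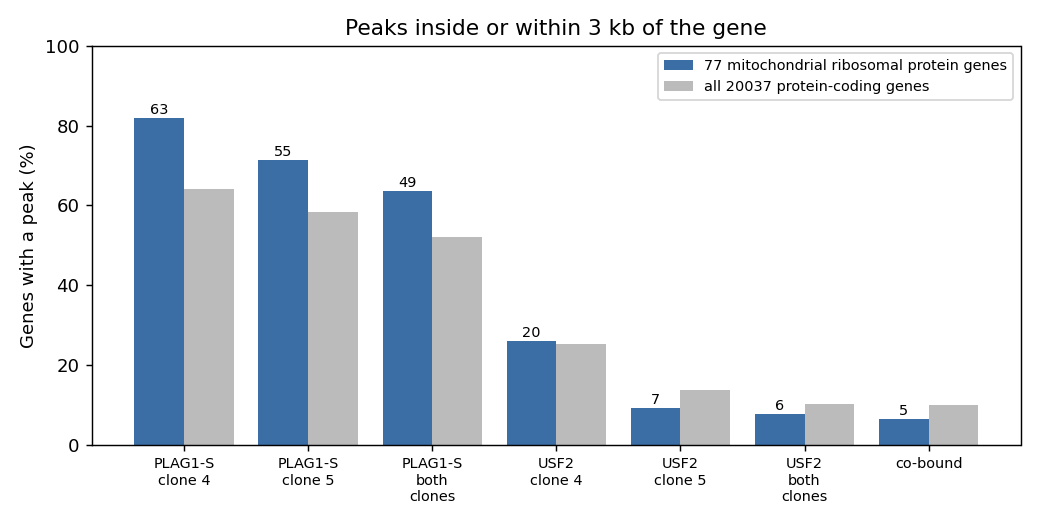
Percentage of genes with a peak inside the gene or within 3 kb, for each list, for reproducible peaks (both clones) and for co-bound peaks, in the 77 mitochondrial ribosomal protein genes (blue, with the number of genes above the bar) and in all 20037 protein-coding genes (grey). The blue bars are taller for PLAG1-S (63, 55 and 49 genes), and the USF2 and co-bound bars are close to the grey ones or shorter.

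Gene length bears on such counts, since a longer gene has a wider window. The members are short, with a median of 8618 bp against 24115 bp for all protein-coding genes. Counted only within 1 kb of a listed RefSeq transcript start, which 69 of the members have, PLAG1-S peaks were reproducible at 41 members (59.4%), against 41.8% of genes with a listed start. USF2 peaks there were reproducible at 4 members (5.80%), against 7.63%, and 4 members (5.80%) were co-bound, against 7.54%. MRPL2, MRPL10, MRPL13, MRPL15, MRPL21, MRPL23, MRPL35 and MRPS28 had no listed start, and their distances are given to the nearer end of the gene.

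Promoters of members with and without a co-bound peak are shown as the 200 bases before the listed start, from RefSeq GRCh38.p14, 5′ to 3′ on the strand of the gene. Capitals mark the E-box CACGTG, which reads the same on both strands, and matches to the G-rich consensus, searched on both strands as GAGGC or GGGGC, then 6 to 8 bases of any kind, then GGG. The 4 co-bound members with a listed start come first.
MRPS18C, chr4:83455858-83456057, plus strand: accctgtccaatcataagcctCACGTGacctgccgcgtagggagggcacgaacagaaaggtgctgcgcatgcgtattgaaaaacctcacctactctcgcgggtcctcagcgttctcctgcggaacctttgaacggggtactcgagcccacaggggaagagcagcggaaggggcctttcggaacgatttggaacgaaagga
MRPL36, chr5:1799838-1800037, minus strand: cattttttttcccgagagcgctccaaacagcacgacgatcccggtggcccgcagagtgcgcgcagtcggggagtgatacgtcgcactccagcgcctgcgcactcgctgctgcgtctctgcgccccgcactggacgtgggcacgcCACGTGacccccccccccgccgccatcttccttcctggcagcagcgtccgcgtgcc
MRPS2, chr9:135499765-135499964, plus strand: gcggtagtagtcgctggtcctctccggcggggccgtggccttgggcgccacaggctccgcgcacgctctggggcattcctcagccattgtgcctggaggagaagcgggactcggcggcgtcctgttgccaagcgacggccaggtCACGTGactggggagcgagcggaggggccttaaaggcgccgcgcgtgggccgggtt
MRPL40, chr22:19432345-19432544, plus strand: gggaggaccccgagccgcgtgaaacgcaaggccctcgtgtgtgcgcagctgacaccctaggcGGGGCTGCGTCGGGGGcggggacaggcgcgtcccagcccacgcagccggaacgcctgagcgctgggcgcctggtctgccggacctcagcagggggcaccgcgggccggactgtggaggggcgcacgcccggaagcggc

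For contrast, MRPL16 and MRPL55 had a reproducible PLAG1-S summit inside the stretch shown and no USF2 peak in either clone, and MRPL54 and MRPS10 had no peak in any list.
MRPL16, chr11:59810779-59810978, minus strand: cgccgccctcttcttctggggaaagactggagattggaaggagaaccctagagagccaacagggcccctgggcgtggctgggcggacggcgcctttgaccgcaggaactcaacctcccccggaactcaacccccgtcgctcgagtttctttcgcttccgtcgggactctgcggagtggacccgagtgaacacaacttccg
MRPL55, chr1:228109300-228109499, minus strand: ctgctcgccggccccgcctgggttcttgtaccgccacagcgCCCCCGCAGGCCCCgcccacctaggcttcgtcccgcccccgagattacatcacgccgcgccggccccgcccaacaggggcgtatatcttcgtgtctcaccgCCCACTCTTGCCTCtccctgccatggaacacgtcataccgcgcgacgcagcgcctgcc
MRPL54, chr19:3762482-3762681, plus strand: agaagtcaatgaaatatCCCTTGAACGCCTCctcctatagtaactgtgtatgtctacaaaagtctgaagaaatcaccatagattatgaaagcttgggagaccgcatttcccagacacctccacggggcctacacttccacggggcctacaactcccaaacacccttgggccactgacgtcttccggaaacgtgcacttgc
MRPS10, chr6:42217862-42218061, minus strand: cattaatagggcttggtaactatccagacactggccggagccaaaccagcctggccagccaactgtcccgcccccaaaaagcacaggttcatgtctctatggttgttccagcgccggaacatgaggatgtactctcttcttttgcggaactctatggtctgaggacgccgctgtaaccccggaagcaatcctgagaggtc

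MRPS18C, the counterpart of bacterial protein S18 in the small subunit, had the strongest peaks of both factors among the members. Its PLAG1-S fold was 37.0 in clone 4 and 25.1 in clone 5, from 195 and 126 fragments over the summit, and the clone 4 peak ranked 147 of 37574. The USF2 fold was 14.8 and 12.9. The PLAG1-S summit lay at position -182 from the start, the USF2 summit of clone 4 at -185, and the E-box began at -179. The start of HELQ, a DNA helicase gene transcribed in the opposite direction, was 7 bp from the PLAG1-S summit, nearer than that of MRPS18C, so the peak belongs to a promoter region that both genes share.

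At MRPL36, the counterpart of bacterial L36 in the large subunit, the PLAG1-S fold was 20.8 and 13.8 and the USF2 fold 10.4 and 9.05. The PLAG1-S summit was at -60, the clone 4 USF2 summit at -70, and the E-box began at -56. The printed stretch lies inside the annotated extent of MRPL36, which has only 1 listed start, and the start of NDUFS6, a complex I subunit gene, was 1510 bp from the summit. MRPS2, the S2 protein of the small subunit, had a PLAG1-S fold of 19.5 and 16.4 and a USF2 fold of 6.09 and 6.83, one of 2 members among the 6 with reproducible USF2 peaks at which the USF2 fold was higher in clone 5. Both summits, at -64 and -60, fell beside the E-box at -56, and the start of PIERCE1, a gene of motile cilia, was 32 bp from the PLAG1-S summit.

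MRPL15, the L15 protein of the large subunit, had a PLAG1-S fold of 22.9 and 15.8 and a USF2 fold of 5.98 and 4.99. Its PLAG1-S and USF2 summits in clone 4 were 1 bp and 2 bp from the nearer end of the gene. MRPL40, a protein of the central protuberance with no bacterial counterpart, had the weakest co-bound peak, with a PLAG1-S fold of 10.2 and 7.66 and a USF2 fold of 3.95 and 2.18. Its PLAG1-S peak rested on 148 and 107 fragments, more than the 123 and 99 at MRPS2, but its local background in the PLAG1-S lists was 13.7 and 13.1 fragments, well above the median of 3.67. The part of this raised background in the call was not tested. The clone 5 USF2 peak of MRPL40 had a −log10 q of 1.91, and with a common limit of 2 for all lists MRPL40 was no longer co-bound. Its promoter held no E-box and 1 G-rich match, which began at -138, with the PLAG1-S summit at -127, 685 bp from the start of HIRA, a histone chaperone gene.

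MRPS18B, a small subunit protein of the S18 family, had reproducible peaks of both factors that were not close to each other. Its PLAG1-S fold was 7.35 and 6.10 at a summit at -350, and its USF2 fold was 3.28 and 4.02 at -1210. The start of PPP1R10 was 247 bp from the PLAG1-S summit. The third S18 relative, MRPS18A, a large subunit protein, had no PLAG1-S peak in either clone and a single USF2 peak in clone 5 with a fold of 3.52 from 20 fragments, 19288 bp from its start. It was the only member with a USF2 peak in either clone and no PLAG1-S peak. The 3 S18 relatives thus differed, from the strongest co-bound peak of the family to none of PLAG1-S.

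**Figure D2:**
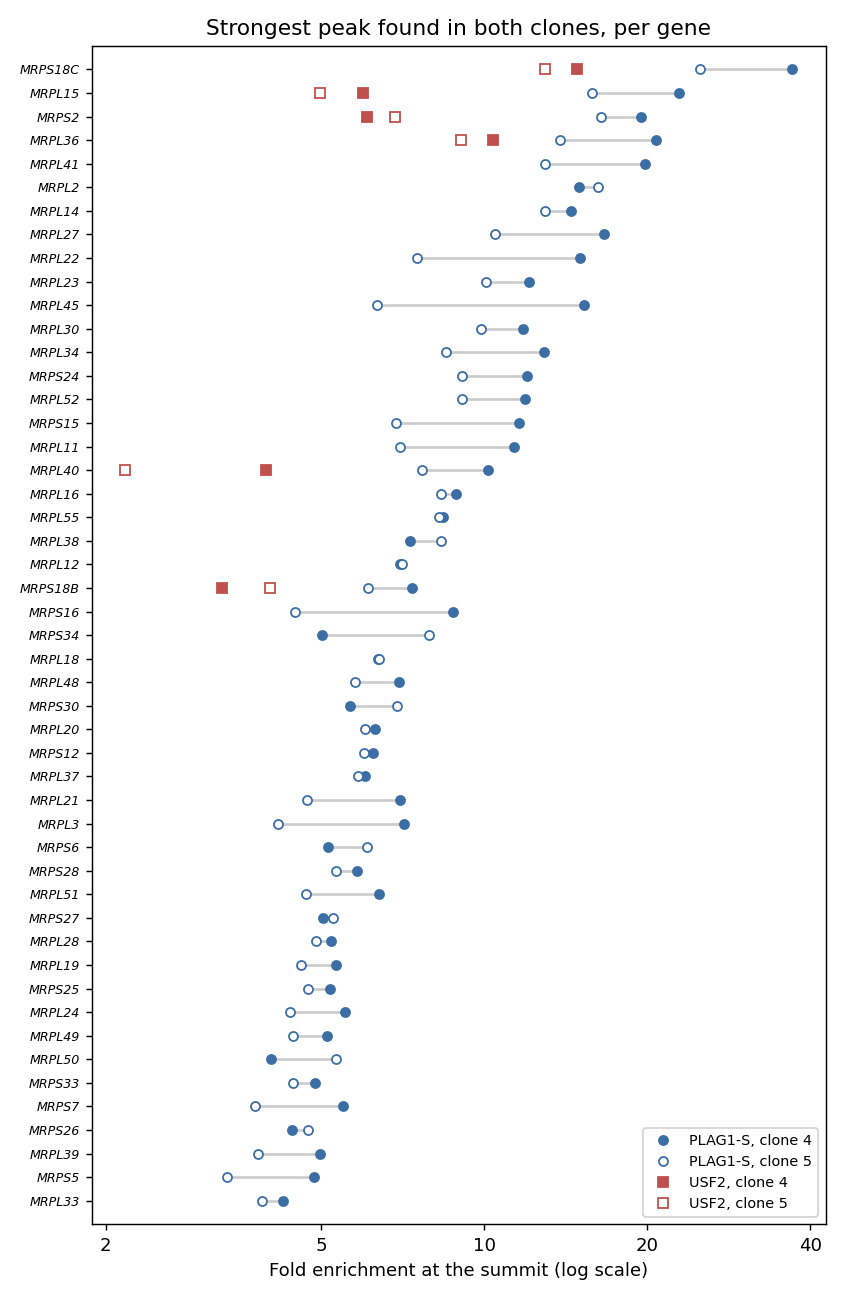
Fold enrichment at the summit (log axis) of the strongest PLAG1-S peak found in both clones at each of 49 mitochondrial ribosomal protein genes, ordered by the mean of clone 4 (filled circles) and clone 5 (open circles), with the fold of the USF2 peak (squares) at the 6 genes where it was found in both clones. MRPS18C stands at the top for both factors, 5 of the 6 genes with squares have the 2 factors within 100 bp, and the filled circle is to the right at 39 of 49 genes.

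Over the 49 members the mean PLAG1-S fold of the 2 clones ran from 4.07 at MRPL33 to 31.0 at MRPS18C. Its median was 6.46, with quartiles of 5.15 and 10.7, against a median of 7.44 over all protein-coding genes with such a peak. So PLAG1-S peaks were found at a larger share of the members than of all genes, while their median fold was the lower of the 2. The fold was that of the strongest peak in the window, and the members have shorter windows than most genes. With the peak nearest the start the medians were closer, 5.94 for the members and 6.25 for all genes. With a window of 1 kb they were 6.32 and 7.27. The part of window length in the lower median was not tested. The mean fold was at least 10 at 15 members, from 5 to 10 at 23 and under 5 at 11. The peak used was the strongest in clone 4, a choice that favours clone 4. Clone 4 was the higher clone at 39 members, with a median ratio of clone 4 to clone 5 of 1.20. The median ratio of 1.13 over all reproducible PLAG1-S peaks was taken without that choice, so it is not a like measure. With the same choice over all genes, the median fold was 8.17 in clone 4 and 6.71 in clone 5, against 6.99 and 6.34 for the members. The share of all genes higher in clone 4 was not counted. The ratio ran from 0.635 at MRPS34 to 2.41 at MRPL45. As a description over 49 members that share the 2 libraries and the merged input, Spearman's rho between the clones was 0.810 and Pearson's r of the log2 folds was 0.873.

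The 12 members with the largest mean fold were MRPS18C, MRPL15, MRPS2, MRPL36, MRPL41, MRPL2, MRPL14, MRPL27, MRPL22, MRPL23, MRPL45 and MRPL30. Of these, 10 encode large subunit proteins and 10 have a bacterial counterpart. These classes are the larger ones in the family, with 51 and 46 of the 77 members and 33 and 31 of the 49 with a reproducible peak. MRPL41, which has no bacterial counterpart, had folds of 19.8 and 13.0 at -1439, where a USF2 peak of fold 6.26 was called in clone 4 only. MRPL2, a protein near the peptidyl transferase centre, had folds of 15.0 and 16.2 and no USF2 peak. The summit lay outside the gene, 159 bp from its nearer end, and the peak was also inside or within 3 kb of CUL7. At the other end of MRPL2 the strongest reproducible peak had folds of 4.88 and 5.18. With no listed start, the strongest peak cannot be placed at the MRPL2 promoter. MRPL2 was the only one of the 12 with the higher fold in clone 5. MRPL14 had folds of 14.5 and 13.0 at -56, with the start of TMEM63B 190 bp from the summit. MRPL27, a protein near the peptidyl transferase centre in bacteria, had folds of 16.6 and 10.5 at 186 bp inside the gene, 231 bp from the start of EME1.

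MRPL45, found at the mouth of the polypeptide exit tunnel, had folds of 15.3 and 6.34 at -131, the least alike of the 49 pairs. An E-box began there at -133, and a USF2 peak was called in clone 4 only, with a fold of 4.16. MRPL30 had folds of 11.8 and 9.85 at -125, with the summit 1 bp from the start of MITD1. MRPL22 and MRPL23, proteins of the exit tunnel region, had their strongest peaks far from their own starts or ends. That of MRPL22 had a fold of 15.1 in clone 4, at -3703 and 841 bp from the start of GEMIN5. It overlapped more than 1 clone 5 peak, and the fold of 7.52 drawn for clone 5 is that of the strongest, which lies outside the 3 kb window, while the clone 5 peak inside the window had a fold of 6.37. MRPL22 was the only one of the 49 where this choice mattered. That of MRPL23 (12.1 and 10.1) was 24774 bp from the nearer end of a gene of 67613 bp, which held 7 reproducible PLAG1-S peaks. MRPL49 was the third member with a strongest peak more than 3 kb from its start, with folds of 5.14 and 4.44 at 7998 bp, beyond the gene and inside the window of SYVN1.

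The remaining members of the 49 belong to most functional regions of the ribosome. The 3 proteins listed around the peptidyl transferase centre, MRPL2, MRPL3 and MRPL16, all had a reproducible PLAG1-S peak. Of the stalk that recruits translation factors, MRPL11 (mean fold 9.18) and MRPL12 (mean fold 7.02) had one and MRPL10 had a clone 4 peak only. Reproducible peaks were found at 4 of 6 genes of the exit tunnel region (66.7%) and at 5 of 7 of the central protuberance (71.4%). Among all protein-coding genes the share was 52.0%, and these regions hold few genes each. MRPS12, the S12 protein of the decoding site, had folds of 6.23 and 5.99 at 1435 bp inside the gene, in a peak also assigned to SARS2. Nearer its start, at -147, a peak of fold 3.75 was called in clone 4 only. By subunit, 33 of 51 large subunit members (64.7%) and 16 of 26 small subunit members (61.5%) had a reproducible PLAG1-S peak, with median folds of 7.80 and 5.86. By origin, the counts were 31 of 46 (67.4%) with a bacterial counterpart and 18 of 31 (58.1%) without, with median folds of 8.33 and 6.11. For all protein-coding genes the share was 52.0% and the median fold 7.44. The differences in share between these groups were a few genes and were not tested.

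The other 28 members had no reproducible PLAG1-S peak. PLAG1-S peaks were called in clone 4 only at 13, with the strongest fold per gene from 3.09 at MRPL9 to 6.52 at MRPS11. They were called in clone 5 only at 5, MRPL32, MRPL42, MRPL44, MRPL57 and MRPS9, with folds from 3.41 to 8.74. The last value, at MRPS9, rested on 33 fragments and lay 17484 bp from the start. MRPS17 had a peak in each clone, with folds of 5.40 and 5.19, that did not overlap. MRPL46 and MRPS11, which encode a large and a small subunit protein, start 320 bp apart in opposite directions and shared a clone 4 peak with a fold of 4.07 from 18 fragments. Most of these peaks were weak, with a median fold of 4.15 for those in clone 4 only, below the median of 6.99 for the clone 4 folds of the 49 members with reproducible peaks. The shares of all genes with a PLAG1-S peak in only 1 clone were not counted. Over all protein-coding genes, PLAG1-S peaks were also more frequent in clone 4 (64%) than in clone 5 (58.3%).

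No peak of either factor was listed in either clone at 8 members, MRPL13, MRPL35, MRPL43, MRPL53, MRPL54, MRPS10, MRPS21 and MRPS31. A list of called peaks gives no value for these genes, so binding under the limit could not be seen. They include large and small subunit proteins with and without bacterial counterparts. The share of all protein-coding genes without a peak in any list was not counted. A PLAG1-S peak in either clone was listed at 68 members (88.3%), against 67.8% of all protein-coding genes.

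USF2 peaks were called at 21 members in at least 1 clone (27.3%), against 27.1% of all protein-coding genes. A reproducible PLAG1-S peak was present at 19 of these 21 (90.5%), against 89.5% of all genes with a USF2 peak in either clone. At 14 members the USF2 peak was in clone 4 only, with folds from 2.68 at MRPL11 to 6.26 at MRPL41 and a median of 3.89. The share of all genes with a USF2 peak in clone 4 only was not counted. Over all protein-coding genes, USF2 peaks were also more frequent in clone 4 (25.3%) than in clone 5 (13.6%). A USF2 peak in either clone was listed at 10 of the 15 members with a mean PLAG1-S fold of at least 10, and at 2 of the 11 with a mean fold under 5. Among all protein-coding genes the shares in the same fold classes were 82.6% and 20.1%, so the same order was seen genome-wide and, at the high folds, the share of the members (66.7%) was the lower one. At the 5 co-bound members the clone 4 summits of the 2 factors were 3, 3, 4, 10 and 15 bp apart.

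PLAG1-S peaks at the members lay mostly near the transcript start. Of 44 members with a listed start and a reproducible peak, the strongest peak had its summit within 250 bp of a start at 27 (61.4%), against 39.4% of all such genes, and within 1 kb at 37 (84.1%), against 62.7%. Within 100 bp the shares were close, with 9 of 44 (20.5%) against 21.2%. The median distance was 184 bp, against 407 bp. The summit was upstream at 24 of the 44 (54.5%), against 42.8% of all such genes. These genes are shorter than most, which limits how far inside a gene a peak can lie.

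Many of these peaks could be assigned to another gene as well. The 49 members had 84 different reproducible PLAG1-S peaks in their windows, and 54 of these also lay inside or within 3 kb of another protein-coding gene. Of the 44 strongest peaks that could be compared, 31 had a summit nearer to the start of the member, 12 nearer to that of another gene and 1 was equally near. Shared peaks and nearest starts were not counted over all genes, so these counts have no background and show no trait particular to the members. Of the 69 members with a listed start, 21 (30.4%) had the start of a gene of opposite direction nearby, at most 1 kb upstream or 250 bp downstream, against 12.6% of all genes with a listed start. A reproducible PLAG1-S peak within 1 kb of the start was present at 14 of these 21 and at 27 of the other 48 (56.3%). Among all genes it was present at 58.8% with such a neighbour and at 39.4% without. The part of these neighbours in the higher share of the members was not tested.

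E-boxes and G-rich matches were counted in windows from 250 bases before to 50 after each listed start, of which the 69 members had 85. An E-box was present in 9 (10.6%), against 8.34% of all windows of protein-coding genes. Of the 4 member windows with a reproducible USF2 peak, those of MRPS18C, MRPL36 and MRPS2 held an E-box, against 67.3% of all windows with such a peak. The other 6 windows were of MRPL14, MRPL22, MRPL37, MRPL45, MRPL49 and MRPS33, the last 4 of them with a PLAG1-S peak in the window. A G-rich match was present in 24 member windows (28.2%), against 38.6% of all. In windows with a reproducible PLAG1-S peak it was present in 13 of 39 (33.3%) for the members, against 55.1% for all genes. The median GC content of those windows was 62.3% for the members and 69.3% for all genes, and its part in the lower share was not tested. Matches are letters in a window and do not show which bases were bound.

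Other genes of mitochondrial translation gave similar counts. Of 46 genes in the lists used here, 32 (69.6%) had a reproducible PLAG1-S peak, against 52.0% of all protein-coding genes. A co-bound peak was present at 3 (6.52%), against 9.98%. The counts for PLAG1-S were 19 of 25 (76%) for mitoribosome assembly and rRNA modification and 6 of 12 (50%) for translation factors. They were 4 of 5 for ribosomal proteins with other symbols and 3 of 4 for mitochondrial transcription. The share for translation factors was thus near that of all genes. The 3 co-bound genes all came from the list of assembly and rRNA modification, the largest of the lists. They were 3 of its 25 genes (12%), near the 9.98% of all protein-coding genes. RPUSD4, a pseudouridine synthase, had PLAG1-S folds of 41.0 and 34.3 and USF2 folds of 30.8 and 22.3, above MRPS18C for both factors. ERAL1, which binds the small subunit rRNA, had PLAG1-S folds of 30.2 and 22.7 and USF2 folds of 13.0 and 11.2. At MTERF3 these were 14.2 and 10.7, and 5.99 and 4.85.

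Set beside 2 other families, reproducible PLAG1-S peaks within 1 kb of a listed start were present at 59.4% of the members, at 58.0% of cytosolic ribosomal protein genes and at 57.4% of nuclear genes for respiratory chain subunits. Within 3 kb of the gene the shares were 63.6%, 67.4% of 86 genes and 57.6% of 85 genes. Reproducible USF2 peaks were present at 7.79%, 11.6% and 11.8%. The PLAG1-S shares at the start were thus within a few percentage points of each other in the 3 families.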

How the data were processed

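Sequencing and peak calling were done by the authors. Their processing notes name FastQC, cutadapt, HISAT2 2.0.4, SAMtools, MACS2, bedtools and HOMER, and the build was hg38. Each immunoprecipitated library had its own list, called against the merged inputs. The deposited fold is a ratio of pileup to local background at the summit. The deposited −log10 p and −log10 q come from MACS2's Poisson model. The deposited score is 10 times the −log10 q and was not used. PLAG1-S lists ended at q-values of 0.0099 and 0.0097, and USF2 lists at 0.049 and 0.048, so a weaker USF2 peak could be listed.

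Genes came from RefSeq GRCh38.p14 (1 interval a gene) and starts and promoter sequence from its promoter table. Reproducible peaks overlapped by at least 1 bp between clones and kept clone 4 coordinates. Fragments over summits were recovered from fold and −log10 p, within 0.001 of the deposited value, for 100% of member peaks. The intersection and recovery code was tested on simulated data. Python 3.11.15, numpy 2.4.6, pandas 2.3.3, scipy 1.17.1 and matplotlib 3.10.9 were used.

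Named are all co-bound members, the 12 with the largest mean PLAG1-S fold, the 6 with the largest USF2 fold, members with USF2 and no PLAG1-S peak, members without any peak and those with a far peak. Others stand as extremes, family relatives or group examples and were chosen after their values were seen. The members and lists were chosen with earlier results of these data known. Same-numbered libraries come from the same clone, which pairs the 2 factors.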

Additional observations from a re-analysis of the deposited data

How the results depend on the processing

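The count of members with a reproducible PLAG1-S peak stayed between 43 and 68 under 10 of 11 alternatives. The shares of all protein-coding genes under these 10 ran from 40.5% to 67.8%. With a −log10 q of at least 10 the count fell to 32 (41.6%), against 33.0% of all protein-coding genes. USF2 counts moved more. With a −log10 q of at least 10, 3 members kept a reproducible USF2 peak (3.90%, against 5.85% of all genes). At that limit 3 were co-bound (3.90%, against 5.74%). With 50% reciprocal overlap between clones 3 were co-bound (3.90%, against 8.65%). With the union of the clones 21 members had a USF2 peak (27.3%, against 27.1% of all genes) and 15 were co-bound (19.5%, against 22.1%). Leaving out each clone in turn gave 55 to 63 members for PLAG1-S, 7 to 20 for USF2 and 5 to 14 co-bound. The high values came from clone 4 alone, whose USF2 list was longer. With clone 5 alone the co-bound share of members was 6.49%, against 11.3% of all genes, and with clone 4 alone 18.2%, against 20.5%. The shares of all genes were 58.3% to 64.0% for PLAG1-S and 13.6% to 25.3% for USF2. With the replicate block, that is with the 2 factors paired within each clone and the count averaged over clones, 9.5 members were co-bound (12.3%), against 15.9% of all protein-coding genes. Edges that overlap or summits within 100 bp gave 5 co-bound members (6.49%), against 9.96% and 9.23% of all genes. Edges within 1 kb gave 6 (7.79%), against 10.1%. The median PLAG1-S fold of the members was 5.94 with the peak nearest the start in place of the strongest, against 6.25 for all genes, and 6.34 to 6.99 with 1 clone left out. It was below that of all genes under each of the 4 alternatives. The lists give no value under the calling limit, so an absent peak is not absent binding. All 4 lists used 1 merged input, and 2 clones give no estimate of error for a single fold.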

Other observations

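Relatives of the members that are not protein-coding were outside the counts above. Of 106 annotated MRPL and MRPS pseudogenes, 7 (6.60%) had a reproducible PLAG1-S peak inside or within 3 kb, against 5.84% of all 16845 pseudogenes. Co-bound were 2 of the 106, MRPL45P2 and MRPS18CP3, against 137 of the 16845. At MRPL45P2 (chr17:47492457-47492811) the PLAG1-S fold was 11.0 and 8.22 in clones 4 and 5 and the USF2 fold 5.61 and 3.22. Of 7 non-coding genes named for a member as antisense or divergent transcript or the like, 4 had a reproducible PLAG1-S peak, and none was co-bound. The 4 were MRPL20-AS1, MRPL20-DT, MRPL23-AS1 and MRPS30-DT. The share over all non-coding genes was not counted, so the 4 of 7 has no background. These genes lie beside their namesakes and can share the same peaks.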
